A study of Mus musculus with 12 samples.

Results

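Acute phase proteins are made by hepatocytes and released into blood, and their output rises when interleukin-6 and interleukin-1 reach the liver during inflammation. The genes examined here were the 10 mouse genes of the serum amyloid A (Saa1, Saa2, Saa3, Saa4), haptoglobin (Hp), orosomucoid (Orm1, Orm2, Orm3), lipocalin-2 (Lcn2) and C-reactive protein (Crp) families, out of 21911 protein-coding gene symbols in the annotation. They were chosen by name. A peak of histone H3 acetylated at lysine 9 (H3K9ac) was assigned to a gene when it overlapped, by at least 1 bp, the gene body or the stretch of 5 kb on either side of its start in the GENCODE M21 annotation of mm10. Of the 10 genes, 7 had a peak in at least 1 of the 6 lists and 6 had one in at least 1 parental list. Their windows held 54 of the 102889 peaks summed over the lists.

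The study mapped H3K9ac by ChIP-seq, the sequencing of DNA recovered with an antibody from fixed chromatin. Adult livers were used, of strains derived from different subspecies and of their hybrids. The lists came from 2 mice of C57BL/6J (B6, the strain of the reference genome) and 2 mice of MSM/Ms (MSM, an inbred strain of Japanese wild origin). A further 2 lists came from reciprocal F1 hybrids, titled BM and MB (F1 BM and F1 MB here). The titles do not name the dam. Read dam first, F1 BM was born to a B6 dam and sired by MSM, and F1 MB was the reverse. Values of a strain are given for replicate 1 and then for replicate 2. No treatment other than fixation of the tissue was given in the labels, so the livers were not described as inflamed. The 6 input libraries were not analysed here.

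H3K9ac is laid on nucleosomes of promoters and enhancers in use, and is removed again by deacetylases. In the resting liver several acute phase genes are transcribed at a basal level, whereas Saa1, Saa2 and Lcn2 are known mainly for their induction. C/EBP, STAT3 and NF-kB proteins bind the promoters of such genes, and the glucocorticoid receptor acts with them.

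Whole livers hold several cell types, and the signal of all of them is mixed in a list. Of 8 hepatocyte markers 7 had a peak within 1 kb of the start in all 6 lists, against 23.6% of all genes. The exception, Hnf4a, had 7082 to 12851 bp under peaks elsewhere in its window. Of 8 neutrophil markers none had a window peak in any list, as was the case for 47.2% of all genes. Of 8 Kupffer cell markers none had a peak at the start, and Cd68 and Csf1r had one elsewhere in the window. The 5 sinusoidal endothelial markers had start peaks at 4 and 0 in B6, 2 and 4 in MSM, 5 in F1 BM and none in F1 MB, with 0 to 6266 bp under peaks in all. A start peak was seen at 1 of 5 stellate cell markers in F1 BM, and at 1 of 5 cholangiocyte and 1 of 4 lymphocyte markers in B6 replicate 1. The part of these cells in the values below was not tested.

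The lists differed in size. They held 22968 peaks over 16.0 Mb and 11619 over 6.28 Mb in B6, 17310 over 9.66 Mb and 17584 over 9.69 Mb in MSM, 20173 over 12.3 Mb in F1 BM and 13235 over 7.46 Mb in F1 MB. Each peak carried a fold enrichment, the linear ratio of its signal to the caller's background, whose median was 3.38 in F1 BM and 4.49 to 5.23 in the other lists. The lists held no read counts, so the sequencing depth was not used here, and a missing peak cannot be told from one too weak to be called. With 2 mice per strain, an exact permutation test, which has 6 ways to assign the parental lists, cannot give a two-sided p below 0.333, so no strain difference could pass 0.05 by this test.

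The 10 genes fell into 3 classes. Saa4, Hp, Orm3 and Crp had a peak within 1 kb of the start in all 6 lists (and so in all 4 parental lists, as 25.5% of all genes had), Orm1 in every list except MSM replicate 2, and Orm2 in B6 replicate 1 alone. Saa1, Saa2 and Lcn2 had no peak in the window in any list, and Saa3 had one only in F1 MB, away from its start. A start peak in all 6 lists was found at 23.6% of all genes, against 4 of these 10, and no window peak in any list at 47.2% of all genes, against 3 of these 10. The shares are a description of 10 genes chosen by name.

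**Figure D1:**
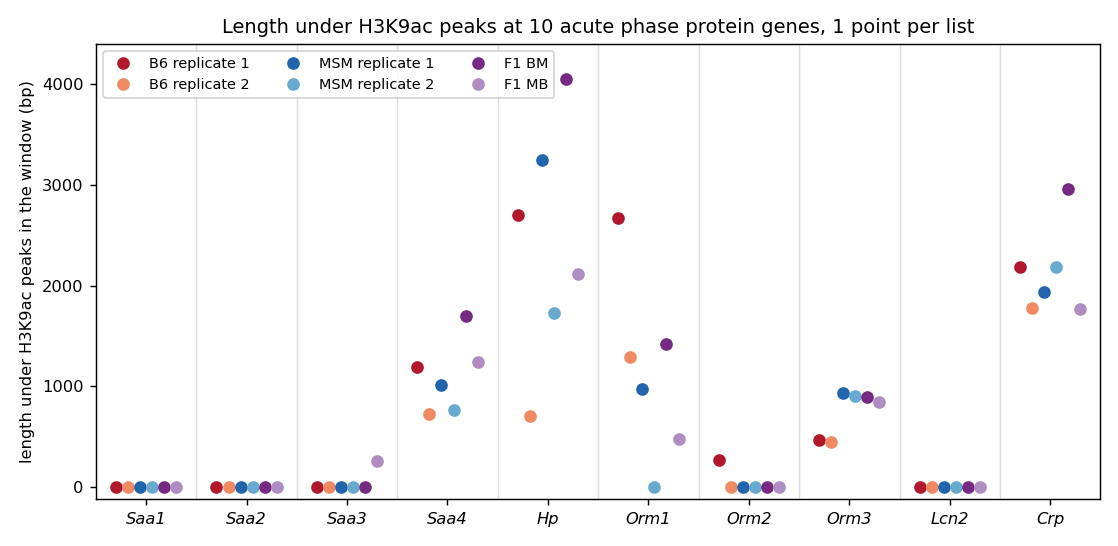
Length in bp of the window under H3K9ac peaks for each of the 10 genes, with 1 point per list coloured by library; the vertical axis is linear. The points of Orm3 form a B6 pair at 463 and 448 bp and an MSM pair at 929 and 902 bp, whereas those of Orm1 run from 0 to 2673 bp with both B6 points above both MSM points.

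Promoter sequences are shown for marked and unmarked genes of the Saa and Orm families and for Crp, so that starts with and without a peak can be read side by side. RefSeq promoters (GRCm38.p6) matched 8 of the 10 genes, without Hp and Orm1. The bases printed are the 200 before the RefSeq start, 5′ to 3′ on the gene's own strand, and positions are counted back from −1, the base before that start. Capitals mark matches to TATAAA, to the C/EBP pattern TTNNGNAA or to TGTTCT, the core of glucocorticoid receptor sites, each searched on either strand. Saa4 lies at chr7:46732604-46732803 (minus strand), Saa1 at chr7:46742981-46743180 (minus strand), Orm3 at chr4:63355958-63356157 (plus strand), Orm2 at chr4:63362249-63362448 (plus strand) and Crp at chr1:172697856-172698055 (plus strand).
Saa4: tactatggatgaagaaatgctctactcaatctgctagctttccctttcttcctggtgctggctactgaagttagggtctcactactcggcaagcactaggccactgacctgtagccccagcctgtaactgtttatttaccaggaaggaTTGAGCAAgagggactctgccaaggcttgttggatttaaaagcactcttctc
Saa1: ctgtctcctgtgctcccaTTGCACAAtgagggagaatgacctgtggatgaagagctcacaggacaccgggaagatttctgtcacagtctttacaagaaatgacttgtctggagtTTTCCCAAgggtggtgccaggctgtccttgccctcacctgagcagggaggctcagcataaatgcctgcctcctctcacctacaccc
Orm3: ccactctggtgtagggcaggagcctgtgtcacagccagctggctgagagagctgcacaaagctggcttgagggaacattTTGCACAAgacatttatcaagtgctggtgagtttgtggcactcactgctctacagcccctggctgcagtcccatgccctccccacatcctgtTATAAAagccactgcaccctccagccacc
Orm2: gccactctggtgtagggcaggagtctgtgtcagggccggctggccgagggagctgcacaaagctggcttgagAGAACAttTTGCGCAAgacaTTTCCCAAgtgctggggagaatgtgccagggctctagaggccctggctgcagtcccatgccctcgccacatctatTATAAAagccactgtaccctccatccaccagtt
Crp: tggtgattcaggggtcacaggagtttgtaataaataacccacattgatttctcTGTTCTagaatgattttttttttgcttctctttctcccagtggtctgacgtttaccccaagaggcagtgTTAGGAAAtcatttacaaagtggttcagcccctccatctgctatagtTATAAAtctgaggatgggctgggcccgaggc

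The C/EBP pattern was found in the 300-base promoters (250 bases before the start to 50 after it) of all 8 matched genes, marked or not, and in 40.7% of 32841 RefSeq promoters. In Orm2 and Orm3 it lay at nearly the same place, from −120 to −113 and from −121 to −114. TATAAA was present in Orm2 (−33 to −28), Orm3 (−29 to −24) and Crp (−31 to −26), and in 13.6% of all promoters. TGTTCT was found in Orm2 and Crp, and in 19.0% of all promoters. The STAT pattern TTCNNNGAA (8.30% of all promoters), a NF-kB pattern (1.63%) and an HNF1 pattern (0.00913%) had no match in the 8 promoters, which says only that these letters are not in this window. All patterns were searched on both strands, and TTNNGNAA reads alike on both strands at some sites, as at −120 in Orm2.

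The 8 promoters were poor in CpG, the dinucleotide that marks most broadly active mouse promoters. Their observed-to-expected CpG ratio ran from 0 in Orm3 to 0.319 in Saa3, which are percentiles 5.42 and 44.0 among all promoters. Of 3808 genes whose promoter had a ratio no higher than that of Saa3, 7.04% had a start peak in all 6 lists, against 35.1% of 9996 genes above it. Saa4, Orm3 and Crp had such a peak, 3 of these 8 genes. The limit was set by the genes themselves, so the shares are given without a test.

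The orosomucoid genes encode alpha-1-acid glycoprotein, a plasma protein that binds drugs and other small lipophilic molecules. They stand in the order Orm1, Orm3, Orm2 on the plus strand of chromosome 4, at chr4:63344560-63348163, chr4:63356162-63359511 and chr4:63362449-63365878 (mm10). The bodies of the 3 genes were 87.6% to 87.8% identical in pairs. In these tandem genes Orm1 and Orm3 ran in opposite directions between the strains, with more Orm1 and less Orm3 under peaks in B6 than in MSM.

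Orm3 had 1 peak in every list, lying inside the gene with its summit 743 to 797 bp after the start, at the junction of intron 2 and exon 3. The length under it was 463 and 448 bp in B6, and 929 and 902 bp in MSM. The strains did not overlap, and their difference of 460 bp (B6 455.5 ± 10.6 bp, MSM 915.5 ± 19.1 bp, SD of 2 lists each) was far above the pooled SD of 15.4 bp (exact permutation test, two-sided, p = 0.333). Both MSM lists above both B6 lists in covered length was found at 4.97% of 11446 genes with a window peak in a parental list, and Orm3 was the 1 such gene of 6 here. F1 BM had 892 bp and F1 MB 840 bp, next to the MSM values and inside the parental range.

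The difference lay on the side of the start. The peak began 470 and 436 bp after the start in B6, 18 and 16 bp after it in MSM, 46 bp in F1 BM and 56 bp in F1 MB. All 6 peaks ended between 883 and 946 bp after the start, so the B6 peak lacked the part next to the start. The strains differed by 436 bp at the upstream edge (pooled SD 17.03 bp, exact permutation p = 0.333) and by 24 bp at the downstream edge (pooled SD 28.5 bp, exact permutation p = 0.667). An upstream edge further out in both MSM lists was found at 6.29% of 5186 genes with a start domain in all parental lists, and one further out in both B6 lists at 19.6%. At the downstream edge those shares were 8.12% and 19.2%, with none of the 4 genes here in either.

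The fold of the Orm3 peak differed in the same direction. It was 6.75 and 5.06 in B6, and 14.9 and 13.3 in MSM. The MSM mean of 14.1 ± 1.12 was 2.39 times the B6 mean of 5.90 ± 1.19 (SD, n = 2 each), a difference of 8.20 against a pooled SD of 1.16 (exact permutation p = 0.333). Both MSM lists above both B6 lists in strongest fold was found at 8.57% of those 11446 genes, and Orm3 was again the 1 such gene of 6.

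Ranks within a list put the same peak near the top in MSM. By fold it stood 106th of 17310 peaks in MSM replicate 1 and 304th of 17584 in MSM replicate 2, at percentiles 99.4 and 98.3. In B6 it stood at percentiles 68.0 and 63.9. The F1 lists had folds of 6.46 in F1 BM and 6.23 in F1 MB, near the B6 values, at percentiles 93.7 and 78.7 of their own lists. The F1 edges thus lay near those of MSM and the F1 folds near those of B6, but by percentile F1 BM stood closer to MSM, in a list whose median fold was the lowest. Neither cross has a replicate error.

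Orm1 ran the other way. The length under its peaks was 2673 and 1292 bp in B6, and 976 and 0 bp in MSM, so that 1 MSM list had no peak there. Both B6 lists stood above both MSM lists, at means of 1982.5 ± 977 bp against 488 ± 690 bp (SD of 2 lists each). The difference of −1494.5 bp (MSM minus B6) was above the pooled SD of 846 bp (exact permutation p = 0.333), and it was −804 bp without B6 replicate 1 and −1006.5 bp without MSM replicate 2. Both B6 lists above both MSM lists was found at 11.6% of those 11446 genes, so this separation was a common one. It was lost when only peaks with a −log10 q of at least 5 or a fold of at least 4 were kept.

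The strongest fold of Orm1 overlapped between the strains. It was 9.51 and 4.30 in B6, and 4.46 and 0 (no peak) in MSM. The difference of −4.67 stood against a pooled SD of 3.43 (exact permutation p = 0.667), and it was −2.07 without B6 replicate 1, −2.44 without MSM replicate 2 and −7.27 without B6 replicate 2. Both B6 lists above both MSM lists in strongest fold was found at 9.29% of those 11446 genes and at none of the 6 here. F1 BM had 1423 bp and a fold of 5.01, and F1 MB 471 bp and a fold of 3.31, all within the parental range.

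The Orm1 peaks were of 2 kinds. The main peak covered the start or the bases just after it, beginning between 28 bp before and 121 bp after the start, with its summit in intron 1 (intron 2 in MSM replicate 1). A further peak lay upstream, from 1059 to 156 bp before the start in B6 replicate 1, from 603 to 194 bp in B6 replicate 2 and from 623 to 185 bp in F1 BM. Neither MSM list nor F1 MB had this upstream peak. Its folds were 4.78, 3.72 and 3.93, at percentiles 42.7, 25.2 and 66.9 of the lists. B6 replicate 1 also had a peak in intron 5.

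The ratio of the strongest folds of the pair was also taken within each list, with the pair chosen after its values were seen. The strongest fold of Orm3 was 0.710 times that of Orm1 in B6 replicate 1 and 1.18 times in B6 replicate 2, but 3.34 times in MSM replicate 1, and MSM replicate 2 had no Orm1 peak to form a ratio. The F1 BM ratio was 1.29 and the F1 MB ratio 1.88. With 1 MSM ratio no strain difference can be stated.

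Orm2 had a single small peak of 265 bp with a fold of 2.99, 233 to 497 bp before its start, in B6 replicate 1. It stood at percentile 5.39 of that list, and in all other lists the nearest peak was the one over Orm3, 5341 to 5404 bp upstream and so outside the window by 341 to 404 bp. The Orm2 promoter printed above holds TATAAA and a C/EBP pattern, as that of Orm3 does. It also holds a further C/EBP match (−108 to −101) and TGTTCT.

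**Figure D2:**
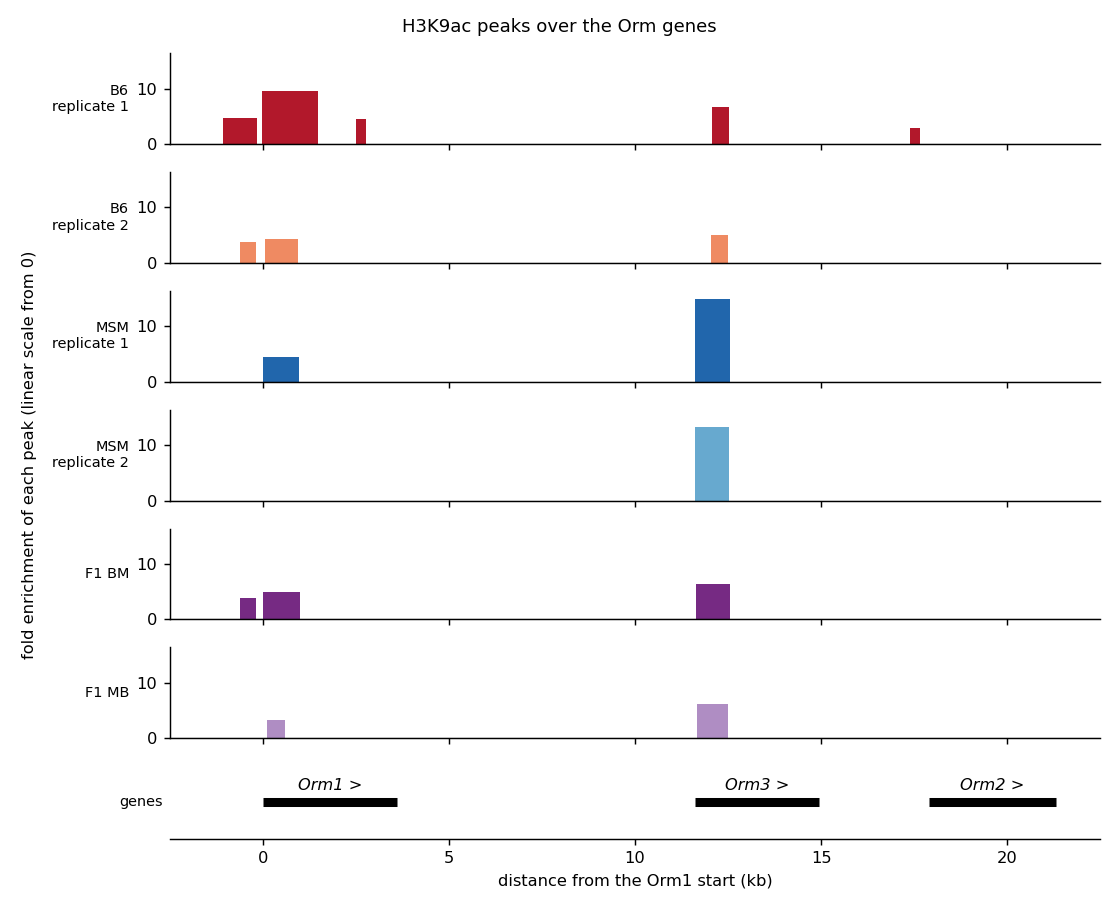
H3K9ac peaks over Orm1, Orm3 and Orm2, with distance from the Orm1 start in kb across and the fold of each peak as bar height on a linear axis from 0; the 6 rows are the lists and the black bars the transcripts. The Orm3 bar is wide and tall in both MSM rows and narrow in both B6 rows, and the bar left of the Orm1 start appears in both B6 rows and in F1 BM.

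Reads of all mice were mapped to the B6 sequence, so the copies could exchange reads if their sequence were too alike. In the reference, 100% of the 50-base stretches in the first 1000 bp after the Orm3 start were unique in the genome, as were 98.6% of those in the first 500 bp of Orm1 and 96.6% in Orm2. Within 2 mismatches, 8.4% of stretches in the first 500 bp of Orm3, where the B6 peak was missing, and 20% of those in the next 500 bp had a match in another Orm gene. In Orm1 the shares were 22.8% and 0%. Those values describe the B6 sequence only, and the copies of MSM and the effect of its sequence on mapping were not tested.

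**Figure D3:**
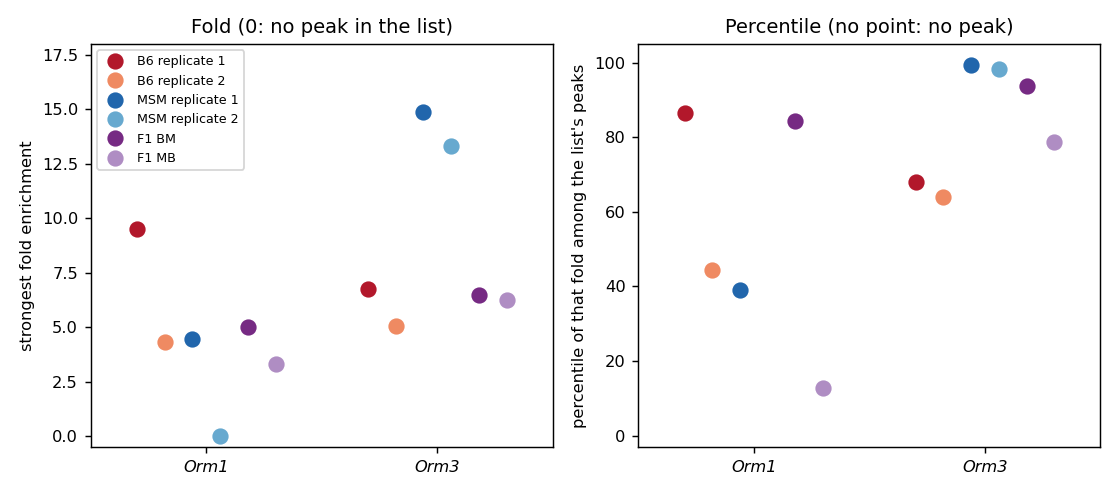
Strongest fold of Orm1 and Orm3 in each list (left, linear axis) and the percentile of that fold among all peaks of the same list (right), with 1 point per list. The MSM points of Orm3 are the highest of the plot in both panels, and the F1 points of Orm3 lie at folds of 6.46 and 6.23 and at percentiles 93.7 and 78.7.

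The genes nearest to Orm1 in pattern, by the mean absolute difference over the 6 lists of the length covered within 5 kb of the start, were Sema4g (219 bp), Ppa1 (240 bp) and Afm (248 bp). Afm, which encodes the plasma protein afamin, had 1900, 1332, 945 and 422 bp in the B6 and MSM lists in replicate order, 1481 bp in F1 BM and 636 bp in F1 MB. The likeness rests on 6 lists that share their sizes with every gene.

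Haptoglobin binds free haemoglobin in plasma. The Hp gene (chr8:109575128-109579172, minus strand) had the longest stretches under peaks of the 10 genes in B6 replicate 1, MSM replicate 1 and both F1 lists. They amounted to 2701 and 700 bp in B6, 3250 and 1724 bp in MSM, 4048 bp in F1 BM and 2117 bp in F1 MB. The strains overlapped, and the difference of 786.5 bp was below the pooled SD of 1258 bp (exact permutation p = 0.667). F1 BM exceeded every parental list in covered length at Hp, Saa4 and Crp, 3 of the 6 genes, as it did at 13.3% of the 11446 genes with a parental peak. It was within the parental range at the other 3, against 81.7% of those genes. F1 MB was within that range at 4 of the 6 (Hp and the Orm genes), against 80.1%. At Orm2 both F1 lists had 0 bp, as had every parental list except B6 replicate 1.

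In every list the main Hp peak lay downstream of the start, over intron 1, beginning 81 to 208 bp after it. The strongest folds were 7.85 and 3.83 in B6, 6.13 and 6.56 in MSM and 6.90 in each F1 list, with overlap between strains (difference 0.51, pooled SD 2.02, exact permutation p = 1). Peaks went on into the gene body. A peak in coding exon 5, the last, was called in B6 replicate 1, MSM replicate 1 and F1 BM, with folds of 3.77, 5.59 and 3.99. A separate peak before the start was called in MSM replicate 1, F1 BM and F1 MB, at 509 to 264 bp, 620 to 156 bp and 587 to 203 bp upstream, with folds of 3.19, 3.18 and 3.55. No B6 list and only 1 of 2 MSM lists had it.

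Outside the window, 6052 to 6604 bp before the Hp start, a peak was called in every list except F1 MB. Its folds were 2.85 and 2.82 in B6, 2.40 and 2.72 in MSM, and 3.55 in F1 BM. In the 4 parental lists it stood at percentiles 0.427 to 3.78, and in F1 BM at percentile 55.7 with a −log10 q of 12.5. B6 replicate 1 had a further peak with a fold of 7.14 that ended 368 bp outside the window. The genes nearest to Hp in pattern were Trp53inp2 (383 bp), Fkbp5 (472.5 bp) and Cyp8b1 (491 bp).

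C-reactive protein, a pentraxin, is the main acute phase marker in human blood but responds weakly in mice. At Crp (transcript chr1:172698055-172699962, plus strand) a peak began between 33 bp before and 36 bp after the start in all 6 lists and had its summit 462 to 634 bp after it, in coding exon 2. The length under peaks was 2185 and 1775 bp in B6, 1932 and 2183 bp in MSM, 2958 bp in F1 BM and 1767 bp in F1 MB. The strains overlapped and differed by 77.5 bp, less than the pooled SD of 240 bp (exact permutation p = 1). F1 BM was above the parental range and F1 MB just below it, as the latter was at 18.7% of the 11446 genes with a parental peak.

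The Crp folds spread more within B6 than between the strains. They were 13.6 and 6.42 in B6, 8.39 and 6.37 in MSM, 8.37 in F1 BM and 8.81 in F1 MB (difference −2.65, pooled SD 3.75, exact permutation p = 0.667). The peak extended past the end of the coding sequence, and in B6 replicate 2 and both MSM lists the 3′ untranslated part of exon 2 held a peak of its own with folds of 3.28 to 4.29. The annotation also gives Crp a long noncoding transcript that reaches to position 172833031, and inside it, 8578 to 8844 bp after the start, MSM replicate 2 and F1 BM each had a peak, with folds of 4.16 and 3.11. MSM replicate 1 alone had a Crp peak before the start, 895 to 669 bp upstream, with a fold of 3.78.

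**Figure D4:**
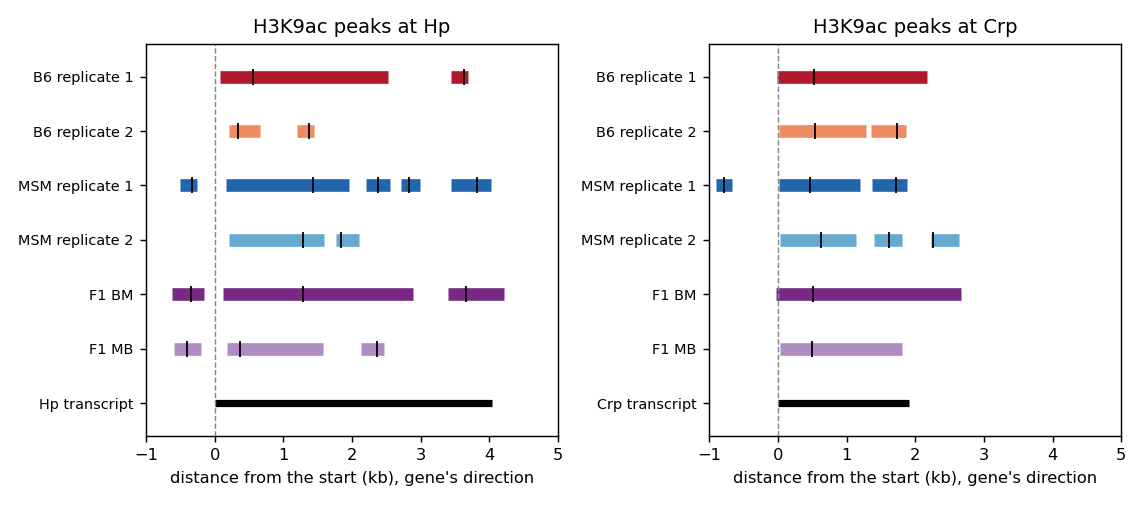
H3K9ac peaks at Hp (left) and Crp (right) as bars against distance from the start in kb in the gene's direction, with 1 row per list, a tick at each summit and the transcript in black. Hp bars start right of the dashed line that marks the start, with separate bars upstream in MSM replicate 1, F1 BM and F1 MB; the main Crp bar begins within 36 bp of the start in every row, MSM replicate 1 has a further Crp bar upstream, and the Crp peaks at about 8.7 kb lie outside the drawn range.

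The serum amyloid A genes encode small apolipoproteins of high-density lipoprotein. Saa1 and Saa2 are induced strongly in the liver, Saa3 is made largely by macrophages and other cells outside the liver as well, and Saa4 is expressed constitutively. They lie within 1 cluster on chromosome 7, Saa3 at chr7:46711998-46715700, Saa4 at chr7:46727998-46732603 and Saa1 at chr7:46740497-46742980 on the minus strand, with Saa2 at chr7:46751790-46754313 on the plus strand.

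Saa4 was the only gene of the cluster with a peak at its start. The length under peaks was 1195 and 726 bp in B6, 1009 and 768 bp in MSM, 1696 bp in F1 BM and 1239 bp in F1 MB. The strains overlapped, with a difference of −72 bp against a pooled SD of 264 bp (exact permutation p = 1), and both F1 lists were above every parental list. In F1 BM the sum included a separate peak of 287 bp before the start, with a fold of 2.64. F1 MB exceeded the parental range in covered length at 1.25% of the 11446 genes with a parental peak, and at 1 of the 6 here.

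The strongest Saa4 peak of every list had its summit in intron 1, 208 to 242 bp after the start. This is the usual place, since the median summit of all start peaks lay 235 to 258 bp after the start and 74.6% to 79.3% of summits were downstream. The folds were 15.0 and 5.20 in B6, 7.27 and 8.50 in MSM, 9.69 in F1 BM, and 9.71 for F1 MB. The B6 pair differed more than the strains did (difference −2.20, pooled SD 4.92, exact permutation p = 1). In F1 BM the peak was 180th of 20173 by fold, at percentile 99.1.

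Saa1 and Saa2 had no peak within 5 kb in any list. The nearest one was in all 6 a peak at the Saa4 start, 9942 to 10399 bp from the Saa1 start and 18752 to 19209 bp from the Saa2 start. Over the first 500 bp after their starts only 40% and 39.8% of 50-base stretches were unique in the reference, and the bodies of the pair were 96.9% identical. Whether reads there were shared between the copies or dropped was not tested. Before the starts, 90.6% and 94.4% of the stretches over 500 bp were unique, and no peak was called there either. At Saa4 those shares were 98% to 100%.

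Saa3 had no peak at its start. F1 MB had 1 peak of 252 bp with a fold of 3.999, 4347 to 4598 bp upstream, 402 bp inside the edge of the window and at percentile 33.2 of that list. In B6 replicate 1, both MSM lists and F1 BM a peak lay 91 to 241 bp outside the other edge, and its summit was 199 to 338 bp from the start of Saal1, the neighbouring gene.

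**Figure D5:**
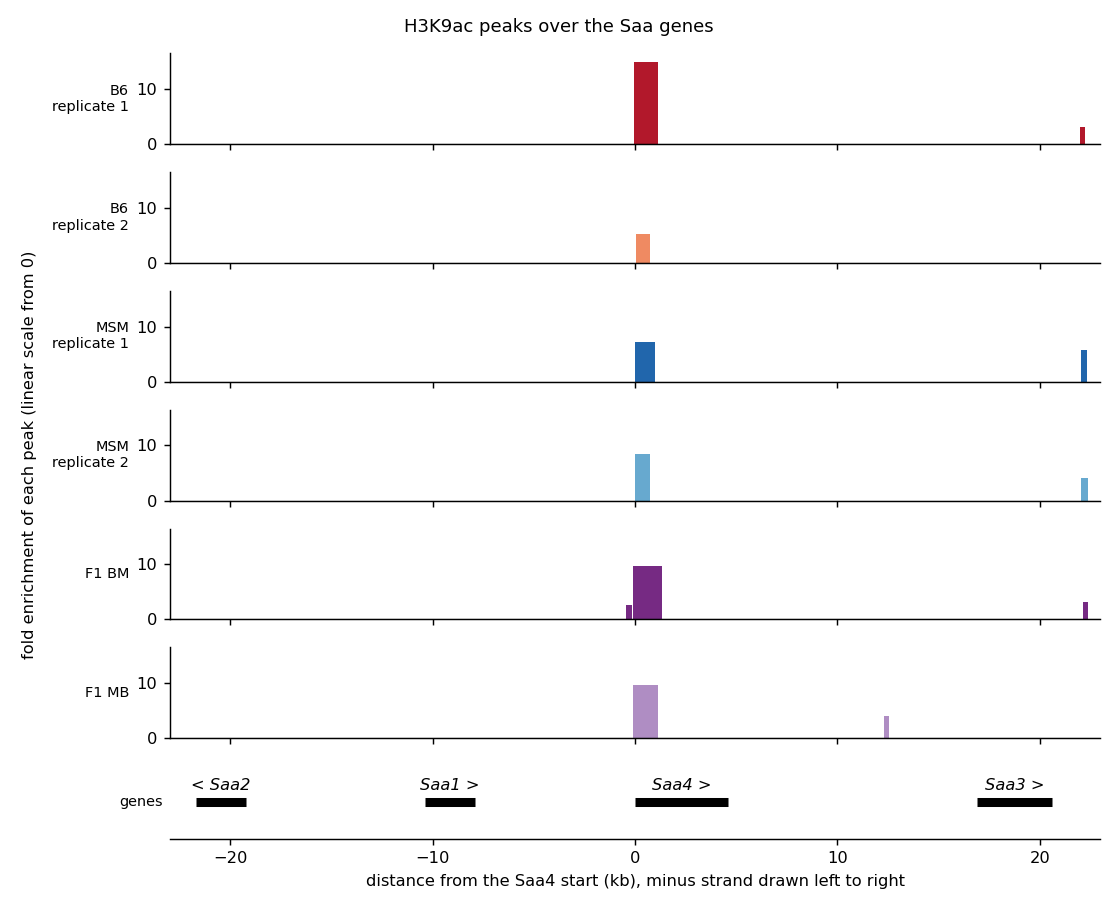
H3K9ac peaks over the Saa genes, drawn as in the map of the Orm genes, with distance from the Saa4 start in kb and the minus strand running left to right. A peak stands at Saa4 in all 6 rows, none at Saa1, Saa2 or the Saa3 start, the single bar near 12 kb is the F1 MB peak upstream of Saa3, and the bars at about 22 kb belong to the Saal1 start outside the window.

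Lipocalin-2 binds bacterial siderophores and is abundant in neutrophils as well as in the inflamed liver. Lcn2 (chr2:32384633-32388252, minus strand) had no peak in its window in any list. Over its first 1000 bp all 50-base stretches were unique in the reference, as were 80.8% over the 500 bp before its start. In every list except MSM replicate 2 the nearest peak lay 7024 to 8300 bp upstream of this annotated gene start, within 1 kb of the start of Ptges2. Lcn2 and Saa1 shared the pattern of 0 bp within 5 kb of the start with 11137 other genes.

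Summed over the 10 genes, the length under peaks was 9482 and 4941 bp in B6, 8096 and 5577 bp in MSM, 11017 bp in F1 BM and 6686 bp in F1 MB. The order partly follows the size of the lists, B6 replicate 2 being the shortest of both. The strains overlapped, at 7212 ± 3211 bp for B6 and 6837 ± 1781 bp for MSM (SD of 2 lists each). The median over the genes of the mean covered length was 395 bp. It was 59.3 bp over all genes and 632 bp over the 11446 genes with a peak in a parental list. In strongest fold the F1 lists were inside the parental range at 6 of 6 genes in either cross. This was so at 62.6% of the 11446 genes with a parental peak for F1 BM and at 76.8% for F1 MB. At Orm2 both F1 folds were 0, as in every parental list except B6 replicate 1, and at Orm1 the parental range began at 0. Such cases also count in the shares of all genes.

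The signalling genes upstream of these promoters, and the transcription factors that bind them, mostly had a start peak in all 6 lists. Of 16 receptor and signalling genes of the interleukin-6 and interleukin-1 pathways, 12 had a start peak in all 6 lists, against 23.6% of all genes. Il6ra, the receptor chain specific to interleukin-6, had 6666 and 3251 bp under peaks in B6, 5917 and 5766 bp in MSM, 8523 bp in F1 BM and 6733 bp in F1 MB. Il6st, the shared signalling chain gp130, had 1209 to 2433 bp and Stat3, the transcription factor it activates, 533 to 1836 bp. Strains overlapped at these 3 genes.

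Both B6 lists stood above both MSM lists at 2 of the 16, Il1r1 and Socs3, and none the other way. Il1r1, the interleukin-1 receptor, had 5375 and 2546 bp in B6 and 1632 and 1810 bp in MSM. Socs3, the feedback inhibitor of interleukin-6 signalling, had 1448 and 664 bp in B6 and 648 and 444 bp in MSM, a gap of 16 bp. The background was 11.6% in the B6 direction and 4.97% in the MSM direction.

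Of 10 transcription factors of these promoters, 7 had a start peak in all 6 lists (23.6% of all genes had one), and Nr3c1 (the glucocorticoid receptor) and Hnf4a had none at the annotated start but at least 2967 and 7082 bp elsewhere in the window. Cebpb had 3214 to 5253 bp and Cebpd 555 to 2593 bp, with overlap between strains. Nfkb1 alone was separated, 1 of 10 against a background of 11.6% in the B6 direction, with 1390 and 1376 bp in B6 and 328 and 655 bp in MSM.

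Of 20 other genes listed as positive acute phase genes, 16 had a start peak in all 6 lists, against 23.6% of all genes. Whether each of them rises in the mouse was not tested. A2m had no peak in any list. Both B6 lists were above both MSM lists at Lbp, Hamp and Fga, and Il1rn was above in MSM. These were 3 and 1 of the 19 genes with a peak in a parental list, next to backgrounds of 11.6% and 4.97%. Hamp, which encodes the iron hormone hepcidin, had 2738 and 342 bp in B6 and 0 bp in both MSM lists, with 678 bp in F1 BM and 692 bp in F1 MB. It has a near copy, Hamp2, and whether reads were exchanged with it was not tested. Lbp, the lipopolysaccharide-binding protein, had 1614 and 1171 bp in B6 and 825 and 528 bp in MSM. Fga, the fibrinogen alpha chain, had 3206 and 1916 bp against 1750 and 1794 bp, and Il1rn, the interleukin-1 receptor antagonist, 0 bp in both B6 lists against 334 and 371 bp. All 8 genes known to fall in the acute phase, among them Alb and Ttr, had start peaks in all 6 lists, beside the 23.6% of all genes, and none was separated between strains.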

How the data were processed

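H3K9ac was measured by ChIP-seq in adult liver with paired reads of 50 bp, and groups and replicate numbers came from the sample titles. The study's methods name Trim Galore and Bowtie 2 with mapping to mm10, whereas the submitters' processing notes name Trim Galore, HISAT2, SAMtools and MACS2 with mm10 and GRCm38, so the aligner is uncertain. The deposited files were narrowPeak lists called on each library separately, with no pooling. In them the authors' caller gave each peak a fold enrichment (a linear ratio over its background) and the −log10 of its p-value and q-value. The lowest −log10 q was 1.30 to 1.35, which fits a q-value limit of 0.05. The deposited score, derived from the −log10 q, was not used. The lists gave no counts, so the depth behind each peak was not used here.

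Genes came from GENCODE M21, with 1 start for each protein-coding symbol. Per gene and list, the length under the union of peaks in the window, the strongest fold and the presence of a peak within 1 kb of the start were taken. Peaks at most 500 bp apart were joined into domains, and the domain nearest the start within 500 bp gave the upstream and downstream edges. A gene was called higher in a strain when both of its lists exceeded both of the other strain, among 11446 genes with a window peak in a parental list. Percentiles of fold are among all peaks of the same list. Uniqueness was counted for 50-base stretches on both strands of the GRCm38 sequence. Python 3.11.15, numpy 2.4.6, scipy 1.17.1, Biopython 1.88 and matplotlib 3.10.9 were used, and the counting functions were tested on simulated data.

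The 10 genes and the lists of other genes were chosen with earlier results of these data known. All 10 were named, with neighbours at the windows, 6 set genes of the lists and up to 3 separated genes for each list and direction. The alternatives were other windows, stricter peak limits, lists cut to equal numbers or lengths, ranks, a replicate block and leaving out each parental library.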

Additional observations from a re-analysis of the deposited data

Results flagged for a closer look

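The peak upstream of Saa3 in F1 MB, with a fold of 3.999, was a signal in an F1 list that no parental list had within the window. It rested on 1 mouse, its −log10 q was 4.25 and it stood at percentile 33.2 of its list, so a weaker enrichment below the limit of the other lists cannot be told from none.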

How the results depend on the processing

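Orm3 was higher in MSM by covered length and by fold under nearly every alternative run. The exception was covered length with a window of 10 kb around the start. The share of all genes called higher in MSM by covered length was 4.97%, and 8.87% with equal numbers of peaks. It was 17.5% with equal covered length, 20.3% with ranks among all genes and 5.03% to 54.6% with 1 library left out. By strongest fold the first 4 of these shares were 8.57%, 9.46%, 18.1% and 18.6%. The lists held 2 mice per strain, no counts and different lengths, and the B6 lists differed most in length. By covered length Orm3 stayed higher in MSM and Orm1 in B6 whichever library was left out, while the calls of Saa4, Hp, Orm2 and Crp below depended on which list was left out.

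By covered length 1 gene was higher in B6 and 1 in MSM. The share of all genes tested that was called under the same setting is given in brackets. With the window of 10 kb these became 2 in B6 (Orm1, Lcn2) [11.3%] and 2 in MSM (Saa3, Orm2) [4.87%]. The wider windows of Lcn2, Saa3 and Orm2 took in peaks of neighbouring genes. In B6, 0 were higher with a −log10 q of at least 5 [11%] or a fold of at least 4 [10.5%], and 2 (Orm1, Crp) with equal numbers of peaks [19.3%]. Equal covered length gave 2 in B6 (Orm1, Crp) [15.6%] and 2 in MSM (Hp, Orm3) [17.5%]. By strongest fold 0 genes were higher in B6 and 1 in MSM, which became 3 in MSM (Saa3, Orm2, Orm3) with the 10 kb window [8.48%]. Equal covered length gave 1 in B6 (Orm1) [7.11%] and 2 in MSM (Hp, Orm3) [18.1%], and ranks among all genes gave the same numbers and names [15.4% and 18.6%]. Start peaks in all 4 parental lists were found at 4 genes, at 2 (Saa4, Crp) with equal covered length [13.2%], and at 2 (Saa4, Orm3) when at least 0.5 of a peak had to lie inside [23.6%].

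Leaving out 1 library at a time, genes higher in B6 by covered length ranged from 1 to 4 and in MSM from 1 to 4, and by strongest fold from 0 to 5 in B6 and from 1 to 3 in MSM, while 4 to 5 genes had a start peak in all lists left [25.5% to 32.3%]. Without B6 replicate 2, Saa4, Orm1, Orm2 and Crp were higher in B6 by covered length (background 84.1%), and without B6 replicate 1, Saa4, Hp, Orm3 and Crp were higher in MSM (background 54.6%). The 5 by strongest fold in B6 came without B6 replicate 2 [69.8%] and the 3 in MSM without B6 replicate 1 [53.6%].

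Leaving out 1 library, the Orm1 difference (MSM minus B6) ranged from −2185 to −804 bp in covered length and from −7.27 to −2.07 in fold, with no change of sign. Other strain differences changed sign. Leaving out 1 library, the covered length ranged from −306.5 to 162.5 bp at Saa4, from −214 to 1787 bp at Hp, and from −127.5 to 282.5 bp at Crp, and the strongest fold from −7.09 to 2.68 at Saa4, from −1.50 to 2.52 at Hp and from −6.25 to 0.96 at Crp. The upstream edge ranged from −48 to 38 bp at Saa4 and from −57.5 to 653.5 bp at Hp. At Crp it kept its sign, from −42 to −9 bp. The downstream edge ranged from −258.5 to 124.5 bp at Saa4, from −0.5 to 48.5 bp at Orm3 and from −133.5 to 624.5 bp at Crp. Without the gene body the Crp covered length differed by −47.5 bp, with equal numbers of peaks by −573 bp and with equal covered length by −831 bp, while the Crp downstream edge differed by −552 bp with peaks not joined, by −501.5 bp with equal numbers and by −841.5 bp with equal covered length. Joining within 1000 bp gave 427.5 bp for the Crp upstream edge, and for that of Hp no joining and equal numbers of peaks each gave −38 bp.

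Replicate numbers gave no sign of pairing, with r = −0.0387 between the deviations of the same-numbered lists across 11446 genes. With the replicate block, 2 genes were higher in MSM by covered length (Hp, Orm3) [8.07%] and 2 in B6 by strongest fold (Orm1, Crp) [14.9%]. Under equal covered length the edges of the start domains of Hp and Orm3 could not be computed, because a list had no domain within 500 bp of the start. For all other alternatives the cause of a change was not tested.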
